A study of Rattus norvegicus with 110 samples.

Results

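The liver and the left kidney of the same 27 vehicle-treated rats were compared by RNA sequencing, paired by animal. Per the paper, liver and kidney libraries were amplified for different numbers of cycles. Organ and library handling therefore cannot be told apart. The comparison took in every kidney library of the series and the liver library with the same animal number, 54 of 110 libraries. All animals were outbred F2 males of the Sprague Dawley strain that received olive oil by oral gavage, 0.5 mL/kg 3 times per week for 39 days. They differed in ancestral exposure to CCl4, a liver toxin given in olive oil to F0 males, F1 males, both or neither. Group 11 had F0-control and F1-control ancestors (n = 7), group 14 F1-treated fathers (n = 7), group 17 F0-treated grandfathers (n = 6) and group 20 both (n = 7). The animals were necropsied after a fast on 4 dates, with 8, 7, 4 and 8 animals. No F2 animal analysed here received CCl4, and all 4 groups shared the vehicle.

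Liver and kidney both take up, metabolize and release solutes, but with different cells and different outlets. Hepatocytes make most plasma proteins, hold much of the body's cytochrome P450 activity, take up glucose after a meal and degrade amino acids. The kidney filters plasma through podocytes and recovers most of the filtrate in the proximal tubule, while intercalated cells of the collecting duct set the acid load of urine. Several enzyme families have members in both organs, so the comparison also shows how one pathway is divided between them.

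The labelled tissues were checked first on genes that define them. Tat, tyrosine aminotransferase of hepatocytes, ranged from 13048 to 78548 normalized counts in the livers (median 24466) and from 0.703 to 28.4 in the kidneys (median 5.13). Lrp2, the endocytic receptor megalin of the proximal tubule, ranged from 66611 to 114500 normalized counts in the kidneys (median 99391) and from 157 to 1218 in the livers (median 594). Neither gene overlapped between organs, and no library went against its organ label. The normalized count is the count after correction for transcript length and library scaling, and it compares a gene between libraries but not one gene with another. TPM, the share of transcripts after correction for length, was used where levels of different genes are set side by side. Markers planned for adrenal cortex, exocrine pancreas, stellate cells, cholangiocytes and blood had no symbol paired with an identifier, so their levels in either organ were not tested. As the RNA came from bulk tissue, fewer cells of a type and less RNA per cell cannot be told apart.

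Promoters of 4 genes that bear the organ contrast are shown as the RefSeq sequence of build GRCr8, from 250 bases before to 50 bases after the start of transcription, 5′ to 3′ on the strand of the gene. Cyp1a2 and Tat are among the named genes with the largest difference toward liver, Foxi1 and Lrp2 toward kidney. Capitals mark TATAAA, the TATA box motif, which was found in the Cyp1a2 window. The deposited counts carry no coordinates, and their values rest on a different annotation from these windows.
Cyp1a2, chr8:66978100-66978399, minus strand: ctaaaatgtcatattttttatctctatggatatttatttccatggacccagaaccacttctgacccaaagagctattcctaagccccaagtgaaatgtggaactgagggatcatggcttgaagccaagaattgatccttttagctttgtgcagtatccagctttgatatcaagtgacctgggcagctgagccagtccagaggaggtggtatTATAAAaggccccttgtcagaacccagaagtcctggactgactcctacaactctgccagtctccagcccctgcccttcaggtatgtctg
Tat, chr19:54856354-54856653, plus strand: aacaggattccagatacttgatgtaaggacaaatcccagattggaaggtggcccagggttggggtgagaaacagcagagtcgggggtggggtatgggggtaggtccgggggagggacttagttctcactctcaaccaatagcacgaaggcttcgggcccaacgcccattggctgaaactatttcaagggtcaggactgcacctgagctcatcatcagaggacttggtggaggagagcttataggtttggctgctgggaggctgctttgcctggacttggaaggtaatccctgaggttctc
Lrp2, chr3:74754486-74754785, minus strand: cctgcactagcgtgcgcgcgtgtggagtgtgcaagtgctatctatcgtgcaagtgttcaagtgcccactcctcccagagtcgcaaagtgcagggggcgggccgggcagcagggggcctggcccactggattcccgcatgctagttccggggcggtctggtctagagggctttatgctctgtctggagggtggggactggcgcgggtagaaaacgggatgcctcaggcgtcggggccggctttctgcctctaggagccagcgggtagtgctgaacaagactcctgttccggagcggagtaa
Foxi1, chr10:19314356-19314655, minus strand: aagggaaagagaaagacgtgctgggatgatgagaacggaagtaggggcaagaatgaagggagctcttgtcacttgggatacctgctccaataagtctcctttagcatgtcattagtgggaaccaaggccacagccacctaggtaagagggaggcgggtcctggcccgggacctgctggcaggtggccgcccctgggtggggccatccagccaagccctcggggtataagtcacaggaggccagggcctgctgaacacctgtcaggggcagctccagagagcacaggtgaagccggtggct
TATAAA, searched on both strands, was held by 14.3% of all 27457 promoters of this length. Among named genes with a promoter it was held by 25 of 217 higher in liver (11.5%), 9 of 160 higher in kidney (5.62%) and 48 of 800 not called (6%). A match describes the sequence alone.

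Liver libraries held 32011243 to 49212897 counts (median 38003195) and kidney libraries 21961746 to 35055218 (median 28089471). All livers were at 0 for 9225 of 31998 identifiers and all kidneys for 8217. The log2 values of libraries of one organ correlated with a median of 0.971 in liver and 0.976 in kidney over 351 pairs each, against 0.362 for the 27 pairs of organs from one animal. The first principal component held 94.2% of the variance of the 1000 most variable genes and separated the organs without overlap. The liver of animal 4 of group 17 stood apart from the other livers, with a median correlation of 0.927 to them. The kidneys of animal 1 of group 17, animal 10 of group 20 and animal 2 of group 11 stood apart from the other kidneys, with 0.954, 0.957 and 0.968. Without the first animal 8930 genes were called between organs, and without the other 3 animals 8991 genes were called, against 8978 with all.

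Genes were called toward both organs. Of 19292 genes tested by edgeR's quasi-likelihood test with the animal as a block, 8978 (46.5%) passed an adjusted p (Benjamini-Hochberg) under 0.1 with an absolute log2 fold change over 1. Of all genes tested, 3663 (19%) were higher in liver and 5315 (27.6%) higher in kidney. For 4984 called genes (25.8% of those tested) the lowest value of the higher organ lay above the highest value of the other organ over 27 libraries each. The direction was the same in all 27 animals for 6304 called genes, in all 4 lineage groups for 8661 and on all 4 dates for 8596. Large differences went more often toward kidney, with 1933 genes higher in liver and 3407 higher in kidney at a log2 difference over 2, and 533 and 993 at a log2 difference over 5. At a log2 difference over 10, where 1 organ has next to no reads, 178 genes were higher in liver and 136 in kidney. The 95% confidence interval of the log2 difference lay within 1 either way for 8160 genes (42.3%).

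The split between organs depended on how libraries were scaled. With TMM scaling, which centres the bulk of genes, the median log2 difference (liver minus kidney) was −0.06 and 40.8% of called genes were higher in liver. With library totals alone the log2 differences moved by a median of −0.966, 11725 genes were called and 1988 of them (17%) were higher in liver. Among members of the 12 lists, 66 genes that were not called changed sign with library totals alone. Of the genes described here Galt, Ahr, Lsr, Baiap2l1, Nfix, Tcf7l1, Adgre1, Ctss, Cd4, Ehd3, Cry1, Zbtb16 and P2rx4 were no longer called with library totals alone, while Cldn2, Per1, Per3, Nr1d1, Usp2, Tsc22d3, Fkbp5, Mpdz, Cd247 and Mt-co1 were called toward kidney. All differences below use TMM and are therefore relative to the typical gene.

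**Figure D1:**
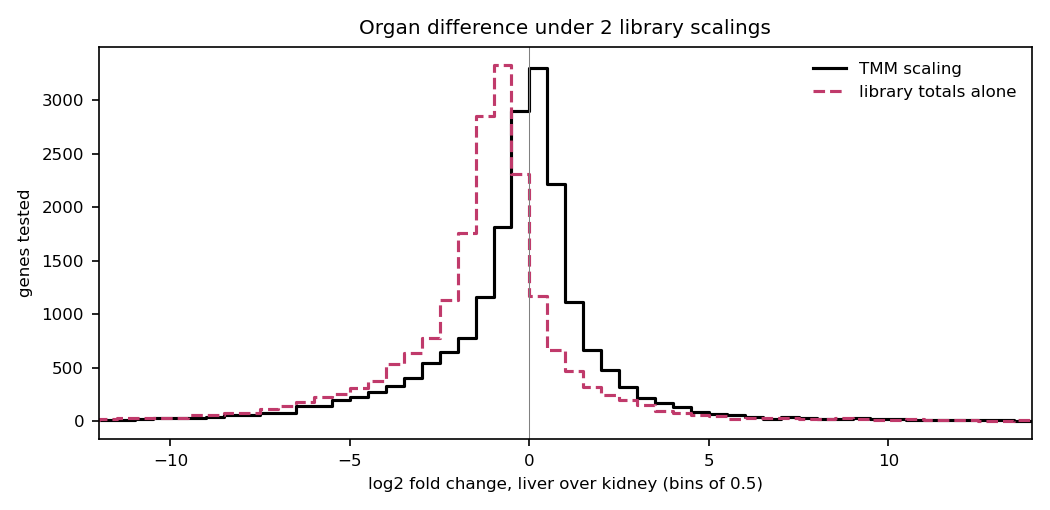
Number of tested genes (y axis) by log2 fold change of liver over kidney in bins of 0.5 (x axis) for TMM scaling (solid line) and library totals alone (dashed line). The 2 curves are of similar shape, and the curve for totals lies to the left of the other, by a median of 0.966, so that its median is −1.02 in place of −0.06.

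A few genes held a large share of the RNA in both organs. The 100 most abundant genes made up 56.6% ± 1.21 of TPM in liver and 51.4% ± 4.77 in kidney (SD, n = 27 each), and the share was higher in liver in 21 of 27 animals (paired permutation test by sign flips, two-sided, 6 measures, adjusted p = 6e-05). The 10 most abundant genes made up 21.4% ± 1.29 in liver and 32% ± 4.84 in kidney, lower in liver in 27 of 27 animals (permutation test, adjusted p = 2e-05), but by raw counts, where long transcripts weigh more, liver was 6.56 percentage points higher. Genes at or above 1 TPM numbered 11859 ± 334 in liver and 13886 ± 241 in kidney, fewer in liver in 27 of 27 animals (permutation test, adjusted p = 2e-05). The last 2 p-values before adjustment, 1e-05, are the smallest that 100000 sign flips can give. The single most abundant gene held 6.51% ± 1.07 of TPM in liver and 5.73% ± 1.38 in kidney, and 50% of all TPM was reached by 63.4 ± 5.65 genes in liver and 91.9 ± 46.5 genes in kidney, with adjusted p = 0.0375 and 0.00584 in the permutation test. These differences varied in size with the measure, as by raw counts liver was 5.54 percentage points higher for the first gene and 16.6 points higher for the first 100, and the liver minus kidney difference in genes reaching 50% was −342.

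**Figure D2:**
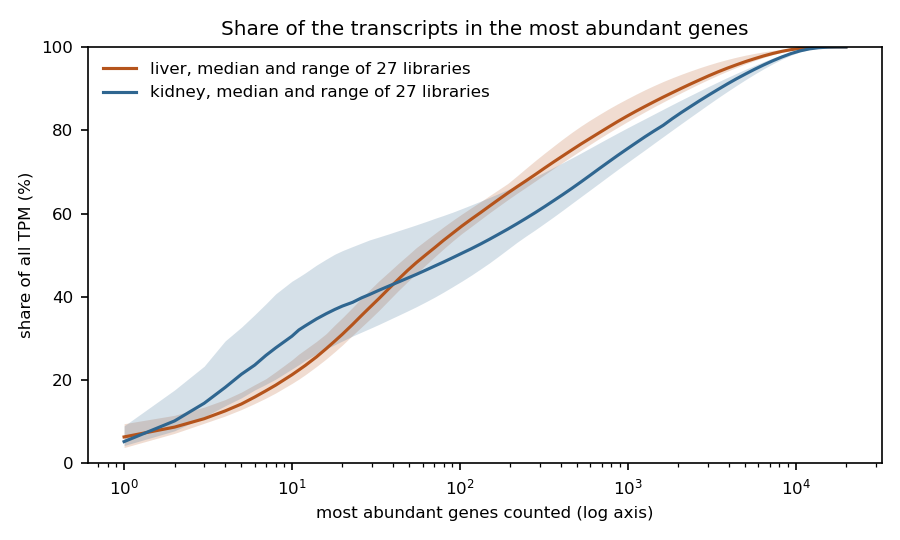
Cumulative share of TPM (y axis, %) by the number of most abundant genes counted (x axis, log axis), as the median (line) and the lowest to highest value (band) of 27 livers and of 27 kidneys. At 10 genes the kidney line lies above the liver line, with mean shares of 32% and 21.4%, at 100 genes it lies below, with mean shares of 51.4% and 56.6%, and the kidney band is the wider one.

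Mt-co1, subunit 1 of cytochrome c oxidase encoded by the mitochondrial genome, was the only gene with a symbol among the 10 most abundant of either organ. Its share of TPM was 1.83% ± 0.379 in liver (lowest 0.82%, highest 2.93%) and 4.29% ± 0.701 in kidney (lowest 2.39%, highest 5.31%), lower in liver in 27 of 27 animals (permutation test, adjusted p = 2e-05). On the normalized count scale the log2 difference was −0.43 ± 0.068 (SE), below the threshold for a call. The most abundant feature of the liver, ENSRNOG00000002911.5, had a median of 63520 TPM in liver and 0.074 TPM in kidney. The most abundant feature of the kidney, ENSRNOG00000031979.3, had 44644 TPM in kidney and 15194 TPM in liver. These features carry no symbol in the tables used here and are given by identifier only. Another 4 unnamed features above 1000 TPM varied over 20-fold among the kidney libraries, and ENSRNOG00000046707.1 of these also among the livers. Without these 4 the liver minus kidney difference was −6.89 percentage points for the 10 most abundant genes, 1.81 points for the first, 8.49 points for the first 100 and −70.2 genes for 50% of TPM.

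Symbols were paired with identifiers only for 1475 genes that the study had listed for an effect of F0 treatment, most of them in liver and all with enough counts there or in kidney. Named genes are therefore a selection made on these animals and do not stand for all genes. Of these, 298 were higher in liver and 206 higher in kidney (34.2% called, against 46.5% of all genes). All members of the lists below are named genes, so 34.2% is the closer share to set beside them. The 44 genes named only from the kidney list held 6 higher in liver and 24 higher in kidney, and the 1412 named only from the liver list held 285 and 180. Of the 1475 named genes 401 were called without overlap between organs, against 4984 of 19292 genes tested (25.8%).

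Among named genes, the largest differences toward liver included those of enzymes, a macrophage protein and a transcription factor that were close to absent from kidney libraries. Cyp1a2, the cytochrome P450 that oxidizes caffeine and many aromatic amines, ranged from 7351 to 167109 normalized counts in the livers (median 14051) and from 0 to 2.01 in the kidneys, where all 27 libraries held 3 counts. Its mean was 178798 times as high in liver, with an exact Poisson 95% interval of 61181 to 867007 that covers counting error in the kidney only. Animal 5 of group 14 held the highest liver value and 2.01 in the kidney, and without it 1 kidney count was left and the ratio was 370035 (95% interval 66414 to 14615612). Cd5l, a protein secreted by tissue macrophages, ranged from 2041 to 7399 normalized counts in the livers (median 3503) and had 1 count in all kidneys, a ratio of 121950 (95% interval 21888 to 4816756). Both genes were present in every liver.

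Enzymes of amino acid breakdown followed. Amdhd1, an enzyme of histidine breakdown, ranged from 1403 to 6374 normalized counts in the livers (median 2876) and from 0 to 2.46 in the kidneys, a mean 16237 times as high in liver on 6 kidney counts (exact Poisson 95% interval 7460 to 44245, for the counting error in kidney only). Tat differed by 12.10 ± 0.260 (SE) on the log2 scale. Onecut2, a transcription factor of liver development, ranged from 327 to 1084 in the livers (median 700.3) and from 0 to 1.27 in the kidneys, a ratio of 6326 on 4 kidney counts (95% interval 2471 to 23218). Mfsd2a, a carrier of lysophospholipids, ranged from 855 to 13613 in the livers (median 4542) and from 0 to 22.4 in the kidneys, a log2 difference of 10.25 ± 0.253. Olr1353, listed as an olfactory receptor, had 52.6 to 407 in the livers and no count in any kidney, at least 1958-fold higher in liver with a floor of 3 counts over the 27 kidneys. LOC680875 and LOC100362216, which have no established name, were also among the largest, the first with a log2 difference of 11.70 ± 0.157 and the second with a ratio of 6865 on 4 kidney counts (95% interval 2681 to 25198). Receptor families and LOC genes can share reads with near-identical copies, so their values are uncertain.

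Among named genes, the largest differences toward kidney included those of several tubule genes. Foxi1, the transcription factor of intercalated cells, ranged from 663 to 1332 normalized counts in the kidneys (median 1019) and had no count in any of the 27 livers, at least 7612-fold higher in kidney. Ggt1, the brush border enzyme that starts the breakdown of glutathione outside the cell, ranged from 20589 to 42152 in the kidneys (median 24599) and from 5.15 to 98.7 in the livers (median 35.7), a log2 difference of −9.57 ± 0.203. Lrp2 differed by −7.31 ± 0.162. No liver came near the lowest kidney for any of these. Gatm, which catalyses the first step of creatine synthesis, ranged from 16763 to 72697 in the kidneys (median 38019) and from 351 to 755 in the livers (median 545), a log2 difference of −6.21 ± 0.114. Psat1, an enzyme of serine synthesis, ranged from 4010 to 7816 in the kidneys (median 6113) and from 32 to 131 in the livers (median 63.1), a log2 difference of −6.61 ± 0.123. Plau, the plasminogen activator urokinase, differed by −6.36 ± 0.107, with medians of 15253 in kidney and 192.5 in liver.

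The first 10 named genes toward kidney held 4 more. Cys1, a protein of the primary cilium, differed by −7.24 ± 0.122, with medians of 2118 in kidney and 14.2 in liver. Krt80, a keratin, and Evpl, the desmosome-associated protein envoplakin, differed by −9.44 ± 0.165 and −7.11 ± 0.200, and Ncs1, a neuronal calcium sensor, by −8.87 ± 0.166. These 3 had median normalized counts of 612, 228 and 912.5 in kidney and of 0, 1.30 and 1.27 in liver.

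**Figure D3:**
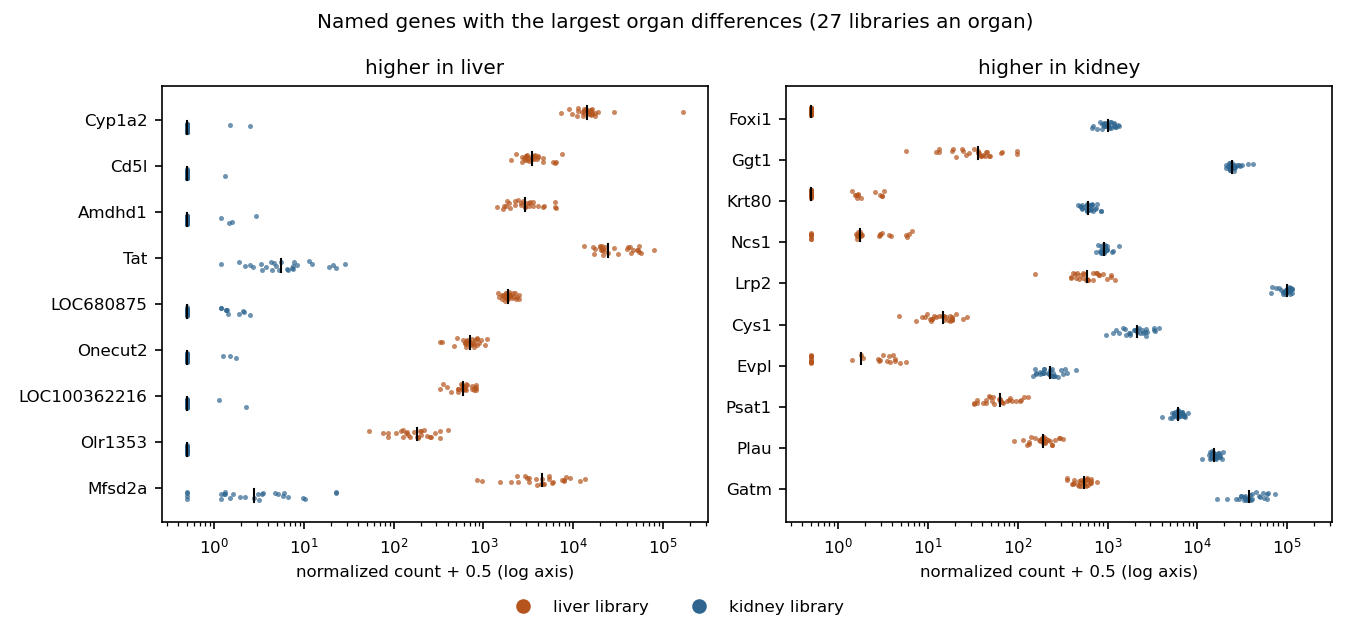
Normalized count plus 0.5 (x axis, log axis) of each liver and kidney library for named genes with the largest differences toward liver (left) and toward kidney (right), with vertical bars at the medians of 27 libraries. The genes were chosen for no overlap between the organs, and Cyp1a2 has 1 liver at 167109 far above the others.

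Genes of hepatocyte secretion and hormone response were mostly higher in liver. Of 14 named members 10 were higher in liver and 0 in kidney (71.4% called, against 46.5% of all genes, of which 19% were higher in liver), with a median log2 difference of 3.74. Igfals, which stabilizes circulating insulin-like growth factors, ranged from 7898 to 17158 normalized counts in the livers (median 13699) and from 264 to 524 in the kidneys (median 400), a log2 difference of 5.02 ± 0.083 (adjusted p = 1.1e-31). Hjv, the co-receptor that controls hepcidin and thereby iron, differed by 6.28 ± 0.106. Cfb, factor B of the alternative complement pathway, differed by 8.53 ± 0.340, or 10.8 by DESeq2, with a kidney median of 0 and a highest kidney value of 16.1, and A2m, a plasma protease inhibitor with close paralogs whose reads it may share, by 7.63 ± 0.286. Receptors for circulating hormones varied in degree. Il6r, the interleukin 6 receptor, differed by 5.44 ± 0.123, Avpr1a, the vasopressin V1a receptor, by 5.24 ± 0.105, and Gcgr, the glucagon receptor, by 2.82 ± 0.076. Fgfr4, a receptor through which bile acid synthesis is repressed, was not called, with a log2 difference of 0.22 ± 0.049 that turned to −0.744 under library totals, and medians of 1702 in liver and 1401 in kidney.

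Drug and xenobiotic metabolism was divided between the organs gene by gene. Of 15 members 5 were higher in liver and 8 higher in kidney (86.7% called, against 46.5% of all genes), with a median of −1.28, or −2.24 under library totals. Cyp1a2, Cyp4f39 (8.16 ± 0.168), Hsd17b2, a dehydrogenase of sex steroids (5.06 ± 0.193), Gstm3l, a glutathione transferase (5.96 ± 0.296), and Ahr, the receptor that induces Cyp1 genes (1.56 ± 0.125), were higher in liver. Ggt1, Gss, glutathione synthetase (−2.54 ± 0.058), Fmo2, a flavin monooxygenase (−4.47 ± 0.107), Akr7a3, an aldehyde reductase (−2.93 ± 0.123), Gpx2, a glutathione peroxidase (−5.09 ± 0.141), and Aldh1a1, a retinaldehyde dehydrogenase (−1.28 ± 0.121), were higher in kidney. Gss and Ggt1, which make glutathione and split it, thus both lay on the kidney side. Cytochromes and glutathione transferases belong to large families and may share reads. Cyp1a1 was called toward kidney (−1.37 ± 0.290) and Cyp2c24 likewise (−1.77 ± 0.676, adjusted p = 0.018), but both overlapped widely between organs. Cyp1a1 was higher in liver in 3 of 27 animals, its call was lost without the first date, and without pairing the organs by animal its log2 difference was 1.17 toward liver. Cyp2c24 ranged from 0.676 to 1254 normalized counts in the kidneys and from 11 to 380 in the livers, and its call was lost without group 11.

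One animal decided the range of the Cyp1 genes. Animal 5 of group 14 had the highest Cyp1a1 in both organs, 2960 normalized counts in liver, where the next animal had 26.6, and 567 in kidney, where the next had 90.9. Its liver also had the highest Cyp1a2, 167109 normalized counts against 28252 in the next.

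Amino acid and carbohydrate metabolism was split nearly evenly. Of 20 members 7 were higher in liver and 8 higher in kidney (75% called, against 46.5% of all genes), with a median log2 difference of 0.33 that turned to −0.637 under library totals. Among those on the liver side were Amdhd1, Tat, Pfkfb1, which sets the fructose bisphosphate switch of glycolysis (9.31 ± 0.156), Gne, the key enzyme of sialic acid synthesis (3.94 ± 0.082), and Galt, of galactose use (1.29 ± 0.069). On the kidney side were Psat1, Gatm, Cndp1, a carnosinase (−5.16 ± 0.087), Aldoa, the aldolase of glycolysis (−3.28 ± 0.056), Odc1, of polyamine synthesis (−1.70 ± 0.084), Hykk (−2.83 ± 0.125), Dglucy (−2.48 ± 0.084) and Glul. Glul, glutamine synthetase, marks hepatocytes around the central vein and also works in the proximal tubule. It ranged from 51191 to 69133 normalized counts in the kidneys (median 58879) and from 7948 to 19188 in the livers (median 12465), a log2 difference of −2.26 ± 0.081. In TPM, Glul had a median of 148 in liver and 1182 in kidney, while Gatm had 7.28 and 860.

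Lipid and cholesterol genes were found on both sides. Of 23 members 11 were higher in liver and 7 higher in kidney (78.3% called, against 46.5% of all genes), with a median log2 difference of 0.43 that turned to −0.533 under library totals. Genes of sterol control were among those on the liver side, with Srebf1, the factor that drives lipid synthesis, at medians of 5452 normalized counts in liver and 1120 in kidney. The log2 difference of Insig1, a retention factor of that pathway, was 2.71 ± 0.189, and of Npc1, which exports cholesterol from lysosomes, 3.03 ± 0.087. None of these 3 overlapped between organs, while 16 of the 23 members and 25.8% of all genes tested were called without overlap. On the kidney side were Ppargc1a, the coactivator of mitochondrial biogenesis (−4.30 ± 0.148), Gpat3, of glycerolipid synthesis (−4.27 ± 0.358), Scd2, a fatty acid desaturase (−2.60 ± 0.085), Acer2, a ceramidase (−1.95 ± 0.081), Acsf3 (−1.77 ± 0.045), Acsl3 (−1.55 ± 0.088) and Lpin3 (−1.02 ± 0.044). The lipins thus went both ways, since Lpin1, a phosphatidate phosphatase, differed by 3.53 ± 0.189 toward liver.

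Acnat1, an acyltransferase of peroxisomes, fell into separate levels among livers. It was at 4.63 to 29.7 normalized counts in 16 livers and at 166 to 797 in 11, with 1 of 7 animals of group 11, 4 of 7 of group 14, 3 of 6 of group 17 and 3 of 7 of group 20 at the higher level. Kidneys held 3 counts, all of them in animal 1 of group 20, and the other 26 kidneys were at 0.

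Genes of the kidney tubule and podocyte were higher in kidney or not called. Of 23 members 13 were higher in kidney and 0 in liver (56.5% called, against 46.5% of all genes, of which 27.6% were higher in kidney), with a median log2 difference of −1.77, or −2.74 under library totals. Nphs1, nephrin of the podocyte slit diaphragm, ranged from 1511 to 2678 normalized counts in the kidneys (median 1969) and from 34.8 to 115 in the livers (median 61), a log2 difference of −4.96 ± 0.106 (adjusted p = 1.1e-28). Atp1b1, the beta subunit of the sodium pump, differed by −5.09 ± 0.091, Alpl, alkaline phosphatase, by −5.32 ± 0.118, Rhbg, an ammonia channel, by −3.56 ± 0.119, Trpm6, a magnesium channel, by −1.81 ± 0.123, and Fras1, a basement membrane protein, by −4.17 ± 0.217. Genes of glomerulus, proximal tubule, distal tubule and collecting duct were all among these. Havcr1, the kidney injury molecule, was not called (0.27 ± 0.281), with medians of 93.2 in liver and 44.2 in kidney, and turned to −0.691 under library totals. Cldn2, the claudin of leaky tight junctions, did not overlap between organs but differed by −0.77 ± 0.068, below the threshold. In TPM the medians of Lrp2 were 1.03 in liver and 302 in kidney, of Ggt1 2.16 and 2590, of Nphs1 0.268 and 16.3 and of Foxi1 0 and 22.9. Nphs1 and Foxi1 thus had lower levels in whole kidney than Lrp2 and Ggt1, which describes these genes alone.

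Developmental transcription factors were found on both sides. Of 25 named factors 9 were higher in liver and 8 higher in kidney (68% called, against 46.5% of all genes), with a median log2 difference of 0.19 that turned to −0.775 under library totals. Besides Onecut2, the liver side held Hhex, needed for liver budding (5.88 ± 0.139), Zfhx4 (8.75 ± 0.167), Lhx2, a LIM homeobox factor of hepatic stellate cells (a ratio of 279 on 10 kidney counts, 95% interval 152 to 581), Meox2 (5.38 ± 0.220), Sox5 (2.36 ± 0.108), Tcf7l1 (1.83 ± 0.102) and Nfix (1.46 ± 0.080). Besides Foxi1, the kidney side held Mecom (−5.27 ± 0.098), Prdm16 (−2.19 ± 0.088), Meis2 (−1.80 ± 0.054) and Nr2f2 (−1.21 ± 0.062). Hnf4g (−1.01 ± 0.088) lay at the threshold, and its call was lost under several alternatives.

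Genes of epithelial junctions and polarity were found on both sides. Of 17 members 4 were higher in liver and 6 higher in kidney (58.8% called, against 46.5% of all genes), with a median of −0.35, or −1.32 under library totals. Cdh17, the liver-intestine cadherin, ranged from 213 to 10858 normalized counts in the livers (median 4513) and from 0.85 to 10.2 in the kidneys (median 3.95), a log2 difference of 9.80 ± 0.229. Lin7a, a scaffold of polarity complexes, differed by 5.11 ± 0.121 toward liver, Lsr, of tricellular junctions, by 1.76 ± 0.042 and Baiap2l1 by 1.82 ± 0.093. Krt80, Evpl, St14, the membrane protease matriptase (−3.84 ± 0.081), Crb3, an apical polarity protein (−1.22 ± 0.061), Eps8l2 (−1.34 ± 0.058) and Marveld3 (−1.28 ± 0.090) were higher in kidney. Eps8, an actin-capping protein of microvilli outside the list, differed by −5.92 ± 0.080.

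Ddr1, a collagen receptor of epithelia, was higher in kidney in all animals (−5.68 ± 0.177), with medians of 67.2 in liver and 3868 in kidney. Animal 4 of group 20 had 1854 in liver, where the next animal had 111, and 7072 in kidney, where the next had 4406.

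Macrophage and lymphocyte genes were higher in liver or not called. Of 14 members 10 were higher in liver and 0 in kidney (71.4% called, against 46.5% of all genes), with a median log2 difference of 1.91, or 0.943 under library totals. Cd163, the scavenger receptor for haemoglobin, ranged from 726 to 2948 normalized counts in the livers (median 1865) and from 0.902 to 25.6 in the kidneys (median 14.9), a log2 difference of 7.14 ± 0.154. Cd14, the co-receptor for lipopolysaccharide, differed by 4.15 ± 0.096, C1qb, of complement C1q, by 3.15 ± 0.072, Cd38 by 3.12 ± 0.108 and Adgre1, the macrophage antigen F4/80, by 1.77 ± 0.083. Cd5l and Cd163, which mark Kupffer cells, lay highest together with Cd200r1l, of a receptor family that may share reads (a ratio of 393 on 9 kidney counts, 95% interval 207 to 860), and general macrophage genes such as Ctss, a lysosomal protease (1.19 ± 0.072), and Cd4 (1.04 ± 0.063) lowest among those called. The call of Cd4 was lost without group 11, the third or the fourth date. Cd247, a chain of the T cell receptor complex, was not called (−0.09 ± 0.088), with medians of 50.1 and 53.5.

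Endothelial genes were found on both sides. Of 13 members 2 were higher in liver, 4 higher in kidney and 7 not called. Of these 46.2% were called, against 46.5% of all genes and 34.2% of named genes, with a median of −0.48, or −1.45 under library totals. Stab1, a scavenger receptor of sinusoidal endothelium (1.97 ± 0.114), and Ehd3, found in endothelium of sinusoids and glomeruli (1.48 ± 0.054), were higher in liver. Gja5, a connexin of arteries (−1.97), Thbd, thrombomodulin (−1.41 ± 0.102), S1pr3 (−1.32 ± 0.106) and Kank3 (−1.18 ± 0.068) were higher in kidney. Kdr, the main receptor for vascular endothelial growth factor, had medians of 3559 in liver and 2882 in kidney and was not called (0.31 ± 0.063, and −0.657 under library totals).

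Solute carriers and ribosome biogenesis completed the named lists. Of 23 carriers 5 were higher in liver and 5 higher in kidney (43.5% called, against 46.5% of all genes and 34.2% of named genes). Their median log2 difference of 0.39 turned to −0.576 under library totals. Slco5a1 (7.42 ± 0.255), Slc1a2, the glutamate carrier of pericentral hepatocytes (5.69 ± 0.210), Slc39a14, which takes up zinc and iron (4.54 ± 0.097), Slc19a2, for thiamine (2.91 ± 0.080), and Slc25a32, of mitochondrial folate (2.21 ± 0.125), were higher in liver. Slc29a3, a nucleoside carrier of lysosomes (−3.67 ± 0.053), Slc25a35 (−2.87 ± 0.070), Slc35a4 (−1.56 ± 0.036), Slc45a3 (−1.18 ± 0.135) and Slc25a48 (−1.16 ± 0.070) were higher in kidney. Of 40 ribosome biogenesis genes 36 were not called (10% called, against 46.5% of all genes), and 35 had a 95% interval within 1 of no difference, with a median log2 difference of 0.46 that turned to −0.504 under library totals. Gtpbp4, a nucleolar GTPase, was the exception toward kidney (−2.71 ± 0.178), at 1379 to 13178 normalized counts in the kidneys and 550 to 1348 in the livers.

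**Figure D4:**
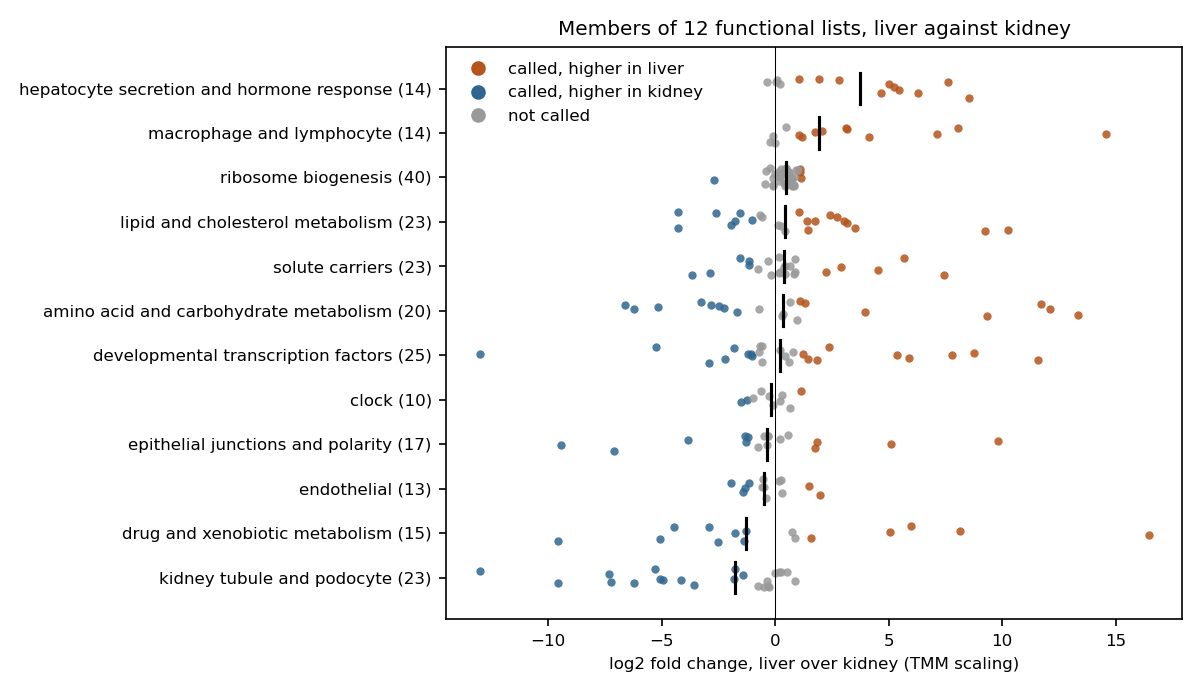
Fitted log2 fold change of liver over kidney (x axis) for each member of the 12 named lists (y axis), with coloured points for called genes, grey points for the others and the list median as a bar. Hepatocyte and macrophage genes hold no member called toward kidney and kidney tubule genes none called toward liver, while the metabolic lists spread to both sides. For Foxi1, without a count in liver, and for Cyp1a2, Cd5l, Acnat1, Amdhd1, Onecut2, Cd200r1l and Lhx2, with 1 to 10 counts in kidney, the plotted value depends on the fit and is no bound.

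Clock genes differed in how widely they ranged within an organ. Of 10 members 1 was higher in liver, Cry1 (1.11 ± 0.047), and 2 were higher in kidney, Dbp (−1.22 ± 0.123) and Noct (−1.50 ± 0.223). Thus 30% were called, against 46.5% of all genes and 34.2% of named genes, with a median of −0.18, or −1.15 under library totals. The call of Dbp was lost without the replicate block (−0.952). Nr1d1, the repressor REV-ERB alpha, ranged from 168 to 3635 normalized counts in the livers and from 323 to 2006 in the kidneys, with a log2 difference of −0.09 ± 0.108 that was not called. Per1, a light- and hormone-responsive clock gene, ranged from 84.8 to 1653 and from 261 to 2474 (−0.98 ± 0.138, not called). Its log2 difference passed the threshold by DESeq2 (−1.04), with DESeq2's size factors (−1.02), without length offsets (−1.06) and under library totals (−1.95). Liver was higher in 2 of 27 animals for Per1 and in 12 of 27 for Nr1d1. Arntl, the activator BMAL1, ranged from 1040 to 2205 in the livers and from 724 to 1295 in the kidneys, with a log2 difference of 0.65 ± 0.035 that was not called and that turned to −0.318 under library totals.

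Each gene was then compared between the 2 organs across the 27 animals, which asks whether an animal with a high level in liver also had a high level in kidney. Of 10954 genes with a mean normalized count over 50 in both organs, 282 had a positive and 13 a negative Spearman correlation at an adjusted p under 0.1 (permutation of animals, two-sided, 100000 draws, Benjamini-Hochberg over all 10954), and the median rho was 0.0562. Among the 1362 named genes 64 were positive and 3 negative. The 10 named genes with the highest rho are given, and they were chosen after their values were seen. Tsc22d3, a gene induced by glucocorticoids, had r = 0.919 and rho = 0.922 (n = 27), Nr1d1 0.916 and 0.899, Per1 0.889 and 0.88, RGD1309540 0.908 and 0.878, Zbtb16 0.866 and 0.852, Fkbp5, a chaperone of the glucocorticoid receptor, 0.793 and 0.85, Usp2 0.875 and 0.822, Cry1 0.865 and 0.819, Nr1d2 0.803 and 0.817, and P2rx4, a receptor for extracellular ATP, 0.866 and 0.804, each with adjusted p = 0.00129 for r and 0.00203 for rho. Their raw p of 1e-05 is the smallest that 100000 draws can give.

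The 4 genes below are from those chosen for the highest rho. Their r stayed positive with date or lineage means removed and without the animals extreme in kidney. No r was computed within the third date, which had 4 animals. With date means removed r was 0.904 for Tsc22d3, 0.921 for Nr1d1, 0.925 for Per1 and 0.762 for Fkbp5. With lineage means removed r was 0.901, 0.865, 0.842 and 0.702. Without the 2 animals farthest from the median in kidney r was 0.897, 0.897, 0.857 and 0.783. Of the 10 members of the clock list 7 passed the test with a positive rho, among them Arntl (rho 0.794) and Dbp (rho 0.737), beside 64 of the 1362 named genes and 282 of all 10954. The other 3 did not, Per3 (rho 0.542, adjusted p = 0.124 by permutation), Noct (rho 0.337, adjusted p = 0.526) and Cry2 (rho 0.289, adjusted p = 0.626). By r, Per3 did pass (r = 0.646, adjusted p = 0.0175 by permutation). Cyp1a1 (r = 0.597) and Ddr1 (r = 0.731) fell to 0.346 and −0.205 without the 2 animals farthest from the median in kidney, and to 0.241 and −0.223 without 1 animal each, animal 5 of group 14 and animal 4 of group 20.

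**Figure D5:**
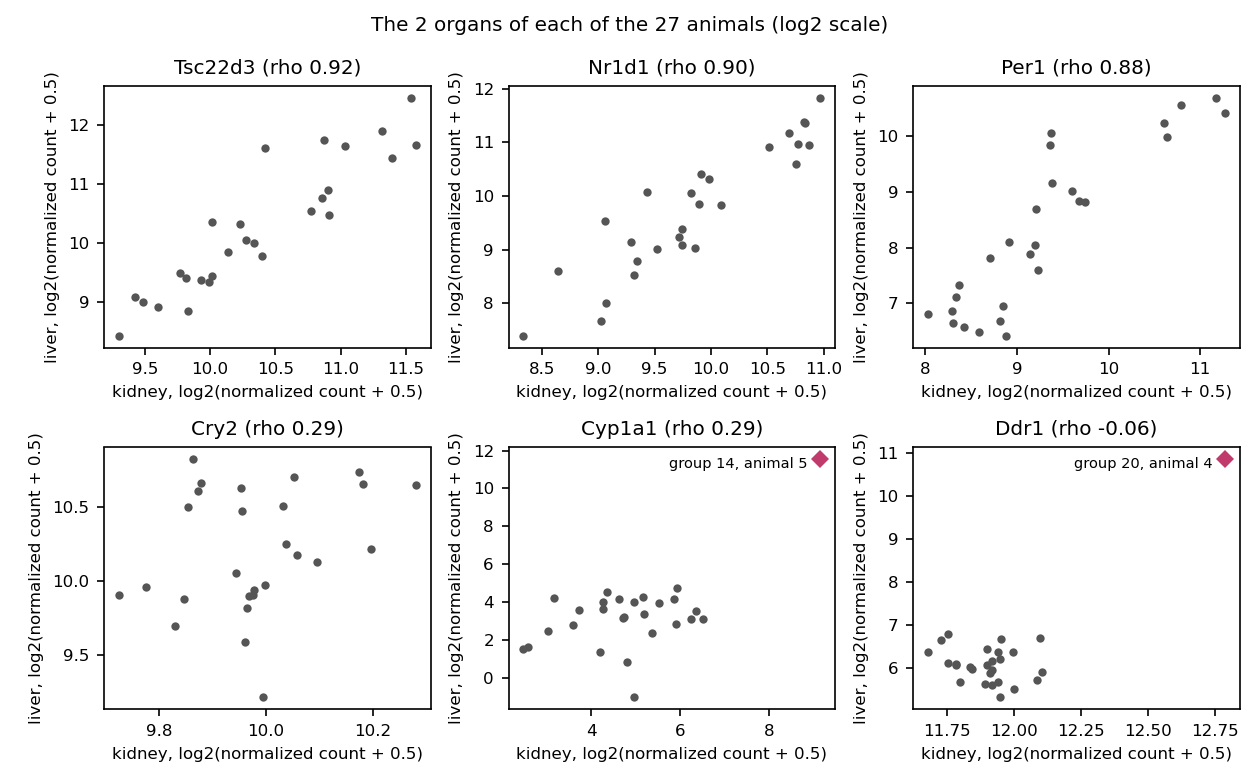
Log2 of the normalized count plus 0.5 in liver (y axis) against kidney (x axis) for 6 genes, with 1 point per animal (n = 27). Tsc22d3, Nr1d1 and Per1 lie along a rising line, Cry2 does not, and for Cyp1a1 and Ddr1 1 animal (diamond) is the highest in both organs.

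The organ difference was finally compared between ancestral treatments. For F0 treatment, 0 of the 12841 genes with a mean over 50 normalized counts (0%) had an organ difference that changed with it by edgeR (p adjusted over all 19292, under 0.1). Of all 19292 genes 1166 had an unadjusted p under 0.05, and the lowest adjusted p was 0.116. DESeq2 called 65, and edgeR called 35 without animal 4 of group 17, whose liver stood apart. For F1 treatment, 0 of the 12841 genes (0%) were called by edgeR, 1131 of all 19292 had an unadjusted p under 0.05, the lowest adjusted p was 0.483 and DESeq2 called 9. Sires and litters shared by animals were not modelled.

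The log2 differences are given by group for 5 genes, as a description chosen after their values were seen. Igfals differed by 4.94, 5.10, 4.87 and 5.16 in groups 11, 14, 17 and 20, with an SD of 0.377 over the 27 animals. Lrp2 differed by −7.52, −7.43, −7.27 and −7.05 (SD 0.691), Gatm by −6.49, −6.29, −5.97 and −6.05 (SD 0.495) and Cys1 by −7.86, −7.04, −7.24 and −6.80 (SD 0.727). Tat differed by 11.83, 11.81, 12.47 and 13.05 (SD 1.30).

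The organ difference varied with the necropsy date for 7 of the 12841 genes (0.0545%), with 4189 of all 19292 at an unadjusted p under 0.05 and a lowest adjusted p of 0.0425. Mpdz, a scaffold protein of tight junctions, was the only one with a symbol (edgeR, adjusted p = 0.0872). Its log2 difference was 0.05, −0.87, −0.33 and −0.23 on the 4 dates. The number called depended on the tool and the animals. DESeq2 called 3112 genes, and edgeR called 2257 without the third date, which had 4 animals, 0 without the second date and 0 without group 11.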

How the data were processed

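RNA of liver and kidney was sequenced by the authors from stranded poly(A) libraries as read pairs, quantified with Salmon 0.14.0 against transcripts of rat Ensembl release 100 and summed per gene. The authors deposited unnormalized estimated counts as whole numbers and, per the file headers, average transcript lengths, taken as score values and used as offsets and to derive TPM. The genome assembly is not named in the sources used here beyond that release. The submitters' processing notes also name bcl2fastq, R 3.5.0 and DESeq2. There were 0 columns of other series.

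A gene was tested when its counts summed to over 10 in any of the groups of organ and lineage. The tools were edgeR 4.0.16, DESeq2 1.42.0 and limma 3.58.1 in R 4.3.3. edgeR's quasi-likelihood model with TMM scaling had the animal as a block and the organ as a term. Its interactions with F0 treatment, F1 treatment and date were called at an adjusted p (Benjamini-Hochberg) under 0.1 and a mean normalized count over 50, organ differences at an adjusted p under 0.1 and a log2 fold change over 1. Errors of log2 values are SE. Organs came from the same animal by label, and their deviations from organ means correlated with a median of 0.133 (−0.0807 to 0.281), against −0.00168 (−0.239 to 0.409) between animals, and 13 of 27 matched their own animal best. The fits were tested on simulated data. Ratios of means replaced fitted values for genes with up to 10 counts in 1 organ, which for 4 to 10 counts was chosen after seeing the data. Intervals and the floor of 3 counts cover counting error only.

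Symbols came from the study's lists alone. Of 447 members of 31 planned lists 47 had an identifier and 0 lists reached 80%, so these lists, the paralog pairs and the sums over nephron pieces and liver zones are left out. The 12 lists used, all members and the tests were chosen with earlier results of these data known. Named genes are list members, the 10 with the largest difference in each direction that had a symbol, a mean normalized count over 50 in the higher organ and no overlap, the most abundant genes and up to 3 genes per interaction. Genes outside this rule were chosen after their values were seen. Alternatives were other scalings, no length offsets, DESeq2, other filters and thresholds, no block, and leaving out groups, dates or, added after seeing the data, libraries that stood apart, single animals or features that vary widely. A few genes that this rule names are not reported here, though they stay in the counts of their lists.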

Additional observations from a re-analysis of the deposited data

Results flagged for a closer look

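The log2 difference of liver minus kidney was checked in each group for 32 genes. In 11 of 128 sets of animals 1 animal lay farther from the others than Dixon's 95% limit allows. Chance gives about 1 in 20 for independent sets of genes picked unseen, which was not so here. Ddr1 was included after its values were seen, and the same animals recur among the flags, so the shares cannot be compared. In group 14, animal 9 lay at 8.41 for Onecut2 (others 10.3 to 11), 11.1 for A2m (others 6.53 to 8.39) and 7.32 for Cfb (others 9.73 to 10.1). In group 17, animal 4, whose liver library stood apart, lay at 13.8 for Cyp1a2 (others 14.4 to 14.7), 9.35 for Onecut2 (others 10.4 to 10.7) and −9.4 for Lrp2 (others −7.16 to −6.47). Cfb lay at 7.37 in animal 10 of group 11 (others 9.79 to 10.6) and at 4.99 in animal 2 of group 17 (others 10 to 10.4). Acnat1 lay at 9.05 in animal 2 of group 11 (others 3.36 to 5.19), Cd163 at 10.5 in animal 5 of group 11 (others 6.7 to 7.35) and Ddr1 at −1.93 in animal 4 of group 20 (others −6.3 to −4.95). The value of Onecut2 in animal 9 of group 14 rested on a kidney level of 1.27 normalized counts beside 0 in the other kidneys of its group, that of Cd163 on a kidney level of 0.902, and that of Acnat1 on the liver, since all kidneys of group 11 were at 0. Cfb and A2m had median kidney levels of 0 and 4.01, where 1 count moves the log2 value.

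The organ difference changed with the necropsy date for 7 genes by the interaction term of edgeR, of which Mpdz had an adjusted p of 0.0872.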

How the results depend on the processing

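For liver against kidney, 5340 genes were called at a log2 fold change over 2, and between 7167 and 11725 genes under the other alternatives (main 8978, 9046 with no replicate block, 8666 to 8906 without a group or a date). The paired fit without its replicate block changed the sign of Cyp1a1 to 1.17, Nr1d1 to 0.152, Usp2 to 0.0753 and Tsc22d3 to 0.144. It ended the calls of Dbp and Hnf4g and the call of Cyp1a1 toward kidney, and changed no other call among 128 genes. Tsc22d3 was at 0.0378 without date 1. Among the same 128 genes, library totals alone turned Fgfr4 to −0.744, Havcr1 to −0.691, Kdr to −0.657, Nr1d2 to −0.682, Arntl to −0.318 and Cry2 to −0.739, ended 16 calls and added 10. List medians there were 2.77 for hepatocyte secretion, −2.24 for drug metabolism, −0.637 for amino acids and carbohydrates, −0.533 for lipids, −2.74 for kidney tubule, −0.775 for transcription factors, −1.32 for junctions, 0.943 for macrophages, −1.45 for endothelium, −1.15 for clock, −0.504 for ribosome biogenesis and −0.576 for carriers, as that scaling moves all genes by a median of −0.966. The share of the 10 most abundant genes was 6.56 points higher in liver by raw counts. The other measures of composition kept their direction. Genes with an organ difference by F0 treatment (main 0) numbered 65 by DESeq2, 1 with its size factors, 2 with a mean count over 10, 35 without the animal whose liver stood apart, 2 without the 3 animals whose kidneys stood apart, 9 without date 2 and 1 without date 3. Those by F1 treatment (main 0) numbered 9 by DESeq2 and 2 without date 2. Those by necropsy date (main 7) numbered 1 at an adjusted p under 0.05, 3112 by DESeq2, 12 with its size factors, 1283 with a mean count over 10, 2024 with no replicate block, 2 and 1 without the animals standing apart in liver and kidney, 0, 2 and 1 without groups 11, 14 and 17, and 3, 0, 2257 and 2 without dates 1 to 4. The cause was not tested. The planned lists, paralog pairs and sums over nephron pieces were not run, since too few members had an identifier. Depth limits fold changes of genes with few counts in 1 organ, and 532 tested genes had none there.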
